A study of Rattus norvegicus with 4 samples.

Results

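The 10 genes described here encode the machinery that carries a cell from the G1 phase of its cycle into DNA synthesis: the D cyclins Ccnd1, Ccnd2 and Ccnd3, the E cyclins Ccne1 and Ccne2, the cyclin-dependent kinases (CDKs) Cdk2, Cdk4 and Cdk6, the CDK inhibitor Cdkn1b and the retinoblastoma gene Rb1. They were taken by name from a list of G1 control genes, and all 10 were present among the 23360 gene symbols of the data. Messenger RNA had been sequenced from INS-1 832/3, a rat insulinoma line that secretes insulin and carries a human insulin gene, with 2 cultures in each of 2 groups. Cells of the 2D group grew as a standard monolayer, while those of the 3D group were bioprinted in GelXA LAMININK 411, a gelatin methacrylate hydrogel blended with laminin, and both were harvested after 5 days at passage 3 in the same medium. Levels were given as TPM, transcript abundances corrected for transcript length and scaled to a fixed sum per sample, so that levels of different genes within a sample can be compared. The comparison asked how culture in the printed hydrogel changed the transcripts of these genes relative to the monolayer.

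As background, D cyclins bind Cdk4 or Cdk6 and E cyclins bind Cdk2, and these kinases phosphorylate the retinoblastoma protein, which then releases E2F transcription factors that switch on genes of DNA replication. Inhibitors such as the product of Cdkn1b bind the cyclin-CDK complexes and restrain them. In rodent pancreatic beta cells Cdk4 and Ccnd2 are known to be needed for the growth of beta cell mass after birth.

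TPM keep no record of sequencing depth, so no counting error could be computed from them alone. The methods state a read count per sample, which was not used here. In each sample, 15180 to 15589 gene symbols were above 0. Differences were tested with limma on log2(TPM + 1) after scaling between samples, over the 11960 genes with a mean of at least 1 TPM, and a gene was called when its p-value adjusted over all of them was below 0.05. The added 1 makes a fold change smaller than the true one where TPM are low. Of the 10 members, 8 reached the minimum level and were tested, whereas Ccnd1 and Cdk6 did not. The test called 7 members, 2 higher and 5 lower in 3D, against 38.0% of all genes tested, of which 18.5% were called higher and 19.5% lower. After scaling, both 3D cultures lay on one side of both 2D cultures in all 8 tested members, as they did in 75.5% of all genes. These calls depended on the pair of 3D cultures: without 3D replicate 1, limma called 1.14% of genes and 0 of the 8 members, 5 of which had an unadjusted p below 0.05, and without 3D replicate 2 it called 8.71% of genes and 3 members, Ccnd3, Ccne1 and Cdk2. With 2 cultures a group, the smallest two-sided p of an exact permutation test is 0.333, and every call therefore relies on limma's pooling of the spread over genes.

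The cells carried the markers of their line. The 10 beta cell markers summed to 139401 and 151307 TPM in the 2D cultures and to 150123 and 161746 TPM in the 3D cultures. Most of this sum was Ins1, and the markers did not all move one way. In deposited TPM, Ins1, Iapp, Nkx6-1, Mafa, Slc2a2, Pax6 and Isl1 were higher in both 3D cultures than in both monolayers, and Neurod1 overlapped. After scaling between samples, Ins1, Nkx6-1 and Mafa overlapped as well. Ins2 was lower, at 13237 and 13340 TPM in 2D and 8957 and 9326 TPM in 3D. Pdx1 was also lower, at 143 and 152 TPM in 2D and 129 and 131 TPM in 3D. Among alpha cell markers, Gcg was listed at 41.9 and 73.8 TPM in 2D and at 124 and 155 TPM in 3D, while Irx2 was listed at 0 in every culture. Defining markers of other cells were absent or nearly so: Hhex, Prss1, Cpa1, Cdh5, Pdgfrb and Ptprc were listed at 0 in every culture. Summed markers reached at most 0.235 TPM for delta cells, 0.0708 TPM for acinar cells, 1.68 TPM for endothelial cells, 2.35 TPM for fibroblasts and 1.46 TPM for leukocytes. The proliferation markers Mki67 and Top2a together stood at 146 and 134 TPM in 2D and at 109 and 116 TPM in 3D. In RNA pooled from whole cultures, fewer cells in a given phase of the cycle and less RNA per cell cannot be told apart, and the part of either in the values below was not tested.

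Among the D cyclins, which sense growth signals and activate Cdk4 and Cdk6, Ccnd2 rose and Ccnd3 fell. Ccnd2 was measured at 77.6 and 60.6 TPM in the 2D cultures and at 114 and 112 TPM in the 3D cultures. Both 3D cultures were higher than both monolayers, and the monolayers differed from each other more than the 3D cultures did. The log2 fold change was 0.67 (standard error 0.099, 95% confidence interval 0.42 to 0.91, limma adjusted p = 0.00811). Over 13 other settings it stayed between 0.52 and 0.80, and the call was lost when either 3D culture was left out (adjusted p = 0.0775 without replicate 1 and 0.0551 without replicate 2, in a range from 0.00135 to 0.0775).

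Ccnd3 went the other way, at 33.3 and 29.3 TPM in 2D and 18.8 and 19.4 TPM in 3D. The groups were apart, with the lower monolayer still well above both 3D cultures. Its log2 fold change was -0.72 (standard error 0.066, 95% confidence interval -0.89 to -0.56, limma adjusted p = 0.00409). Of the 13 other settings, 12 kept the call, and without 3D replicate 1 the adjusted p was 0.0569 (range 0.000903 to 0.0569).

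Ccnd1, the remaining D cyclin, was barely detected. It was listed at 0.0527 and 0.0384 TPM in 2D and at 0.252 and 0.300 TPM in 3D, through 1 of its 2 transcripts, while the other was at 0 throughout. Both 3D values were above both 2D values, at levels above those of 38.0% to 43.3% of the gene symbols. With no minimum level, limma gave a log2 fold change of 0.28 and an adjusted p of 0.0220, on a scale where the added 1 TPM outweighs the values themselves.

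**Figure D1:**
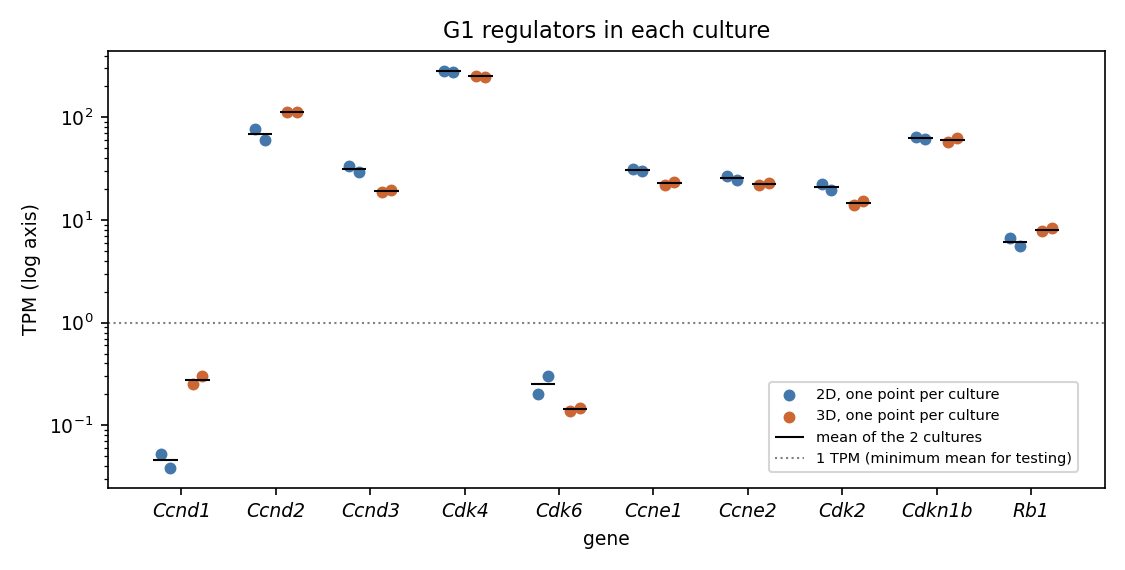
TPM of the 10 genes on a log axis, with 1 point for each culture, 2 in 2D (blue) and 2 in 3D (orange), and a bar at their mean. Cdk4 lay highest, between 250 and 285 TPM, Ccnd2 lay higher in both 3D cultures than in both 2D cultures, and Ccnd1 and Cdk6 stayed below 1 TPM in every culture.

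With Ccnd2 and Ccnd3 moving in opposite directions, the makeup of the D cyclin pool differed between the groups. Ccnd2 supplied 70.0% and 67.4% of the summed D cyclin TPM in the 2D cultures and 85.6% and 85.0% in the 3D cultures. The shares did not overlap, and the 2 cultures of a group were within a few percentage points of each other. In the mean the Ccnd2 share was 68.7% ± 1.82 (SD, n = 2) in 2D and 85.3% ± 0.452 (SD, n = 2) in 3D, and that of Ccnd3 was 31.3% ± 1.82 and 14.5% ± 0.425. Ccnd1 contributed at most 0.228% in any culture. The ratio of Ccnd2 to Ccnd3, computed after the values had been seen, was 2.33 and 2.07 in 2D and 6.04 and 5.76 in 3D. Summed over the 3 genes, D cyclins stood at 111 and 89.9 TPM in 2D and at 133 and 131 TPM in 3D, so that the total was also higher in both 3D cultures. Shares within a sample do not change with the scaling between samples, and they were not tested.

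Cdk4, a catalytic partner of the D cyclins, was the most abundant of the 10 genes in every culture. It was measured at 285 and 278 TPM in 2D and at 251 and 250 TPM in 3D. The groups did not overlap, but the gap was narrow beside the level itself. A log2 fold change of -0.21 (standard error 0.053, 95% confidence interval -0.34 to -0.081, limma adjusted p = 0.0282) passed the threshold. It stayed negative in all 13 other settings and passed in 8, where the whole range of adjusted p was 0.0263 to 0.168, and among the losses were the settings without the intensity trend (0.0555), without 2D replicate 2 (0.0610), without 3D replicate 1 (0.154) and without 3D replicate 2 (0.168).

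Cdk6, which forms the same complexes in many other tissues, was listed at 0.201 and 0.301 TPM in 2D and at 0.137 and 0.148 TPM in 3D. Both 3D cultures were below both monolayers, far under the level required for testing. Cdk4 exceeded it by 1422 and 922 times in the 2D cultures and by 1827 and 1693 times in the 3D cultures, ratios whose denominator is close to 0. With no minimum level its log2 fold change was -0.14 (limma adjusted p = 0.154). Set against the D cyclins, Cdk4 was 2.57 and 3.09 times as abundant in 2D and 1.89 and 1.90 times in 3D. Transcripts of the catalytic subunit thus outnumbered those of its cyclins in every culture, by less in 3D than in 2D, in a ratio that was chosen after its values were seen.

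The E cyclins, which take over from the D cyclins late in G1, both fell. Ccne1 was measured at 31.4 and 29.8 TPM in 2D and at 22.2 and 23.5 TPM in 3D. The cultures of a group lay close together and the groups were well apart. Its log2 fold change was -0.45 (standard error 0.059, 95% confidence interval -0.60 to -0.30, limma adjusted p = 0.00643). Over 13 other settings the value ran from -0.48 to -0.41. The call was lost only without 3D replicate 1, where the value was -0.42. Without 3D replicate 2, at a value of -0.48, the call passed only narrowly.

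Ccne2 changed less, at 27.1 and 24.8 TPM in 2D and 21.8 and 22.9 TPM in 3D. All 4 values fell within a narrow band, the lower monolayer close to the higher 3D culture without overlapping it. A log2 fold change of -0.25 (standard error 0.061, 95% confidence interval -0.40 to -0.095, limma adjusted p = 0.0279) was obtained. The call was lost without scaling (adjusted p = 0.0820), without 2D replicate 1 (0.0580), without 3D replicate 1 (0.182) and without 3D replicate 2 (0.125), and adjusted p ranged from 0.0274 to 0.182 over the 13 settings. The ratio of Ccne1 to Ccne2 was 1.18 ± 0.0286 (SD, n = 2) in 2D and 1.02 ± 0.00956 (SD, n = 2) in 3D. Ccne1 was thus the more abundant E cyclin in the monolayers, and the pair was nearly level in the 3D cultures.

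Cdk2, the kinase that E cyclins activate, was measured at 22.4 and 19.6 TPM in 2D and at 14.0 and 15.3 TPM in 3D. Both 3D cultures were lower than both monolayers. Its log2 fold change was -0.53 (standard error 0.075, 95% confidence interval -0.71 to -0.34, limma adjusted p = 0.00725). Over 13 other settings the value ran from -0.59 to -0.48. The call was lost only without 3D replicate 1, where the value was -0.48. Without 3D replicate 2, at a value of -0.57, the call passed only narrowly. Cdk4 was 12.8 and 14.2 times as abundant as Cdk2 in 2D and 17.9 and 16.3 times in 3D, in another ratio chosen after the values were seen.

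Cdkn1b encodes p27, an inhibitor that binds cyclin E-Cdk2 complexes and also associates with cyclin D-Cdk4. It was measured at 65.1 and 62.1 TPM in 2D and at 57.5 and 63.5 TPM in 3D. The groups overlapped in these deposited values, since 3D replicate 2 lay between the monolayers, and they were only just apart after scaling. The log2 fold change was -0.12 (standard error 0.063, 95% confidence interval -0.27 to 0.043, limma adjusted p = 0.194), and no call was made in any of the 13 other settings, where adjusted p ran from 0.128 to 0.668. The value was -0.054 without 3D replicate 1 and -0.17 without 3D replicate 2. D cyclins relative to Cdkn1b stood at 1.70 and 1.45 in 2D and at 2.31 and 2.07 in 3D, a ratio that was higher in both 3D cultures.

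**Figure D2:**
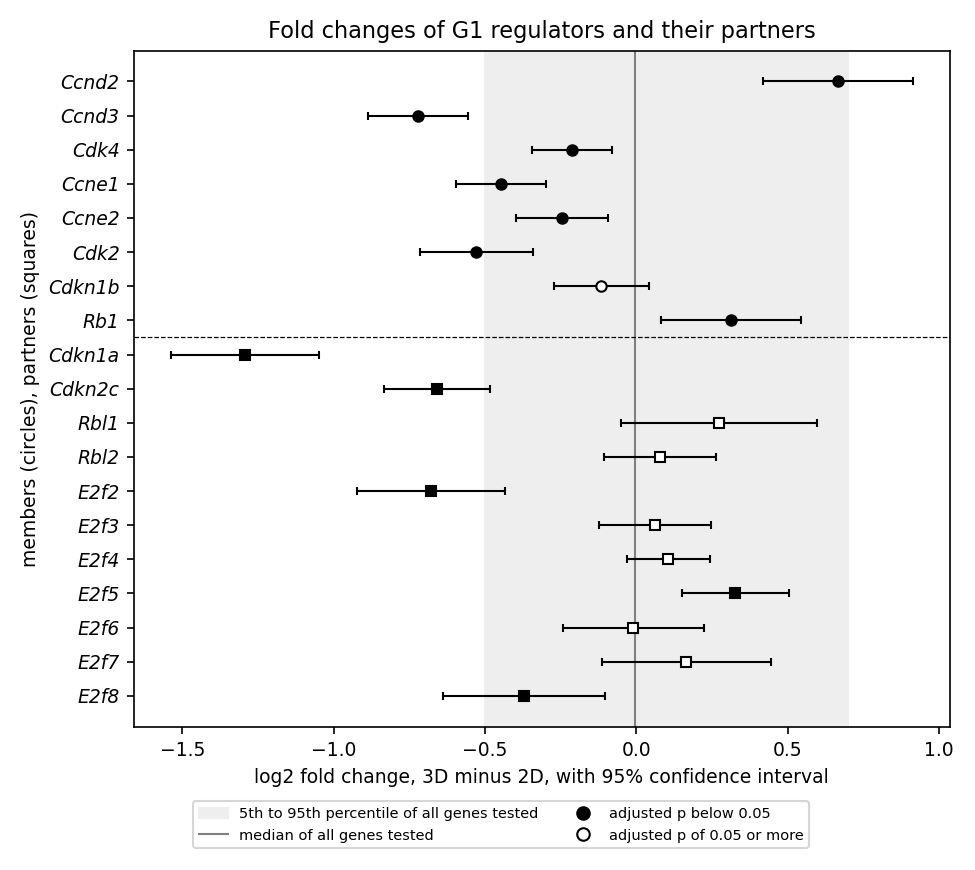
Log2 fold changes, 3D minus 2D, with 95% confidence intervals from limma for the 8 tested members (circles) and their nearest partners (squares), filled where the adjusted p was below 0.05. The shaded band runs from -0.50 to 0.70, the range from the 5th to the 95th percentile of all genes tested; Ccnd3 at -0.72, Cdk2 at -0.53, Cdkn1a at -1.29, Cdkn2c at -0.66 and E2f2 at -0.68 lay below it.

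Of the 6 other CDK inhibitors listed, 2 were tested and both fell, where 19.5% of all genes tested were called lower, with a median log2 fold change of -0.98 beside -0.0031 over all genes. Cdkn1a, which encodes p21 and is a classic target of p53, was measured at 53.9 and 47.1 TPM in 2D and at 18.7 and 22.7 TPM in 3D. The groups were far apart, with means of 50.5 ± 4.82 TPM (SD, n = 2) in 2D and 20.7 ± 2.80 TPM (SD, n = 2) in 3D. The log2 fold change was -1.29 (standard error 0.098, 95% confidence interval -1.54 to -1.05, limma adjusted p = 0.00357), and Cdkn1a was called in each of 13 further settings, where adjusted p ran from 0.000365 to 0.0353.

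Cdkn2c encodes p18, an inhibitor that binds Cdk4 and Cdk6 and not Cdk2. It was measured at 49.6 and 51.8 TPM in 2D and at 33.3 and 32.1 TPM in 3D. The groups were clearly apart, with a log2 fold change of -0.66 (standard error 0.070, limma adjusted p = 0.00459) that was lost only without 3D replicate 1 (adjusted p = 0.0571, range 0.00130 to 0.0571 over 13 settings). Cdkn1c, Cdkn2a and Cdkn2b were listed at 0 in all 4 cultures, and Cdkn2d was not analysed here.

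The makeup of the inhibitor pool differed along with these falls. This pool, formed after the values had been seen, held Cdkn1a, Cdkn1b and Cdkn2c and summed to 169 and 161 TPM in 2D and to 109 and 118 TPM in 3D. Cdkn1b supplied 38.6% of it in each of the 2D cultures and 52.5% and 53.7% in the 3D cultures, while its own level had not passed the test. Cdkn1a supplied 32.0% and 29.2% in 2D and 17.1% and 19.2% in 3D. The share of Cdkn2c overlapped between groups, at 29.4% and 32.2% in 2D and 30.4% and 27.2% in 3D. D cyclins relative to this pool stood at 0.658 and 0.558 in 2D and at 1.21 and 1.11 in 3D, so that inhibitor transcripts outnumbered D cyclin transcripts in the monolayers and not in the 3D cultures.

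**Figure D3:**
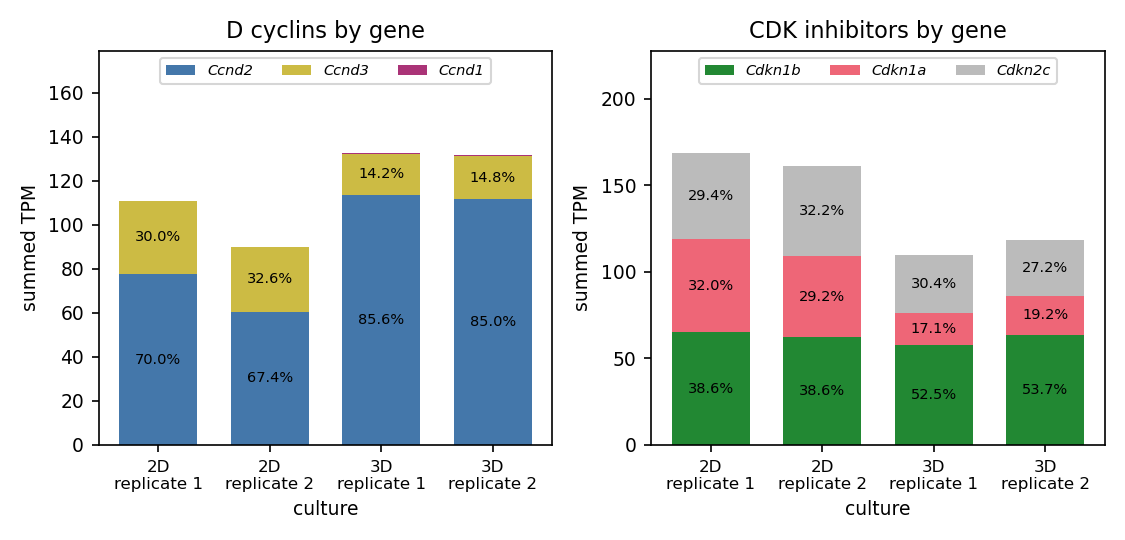
Summed TPM of the D cyclins (left) and of Cdkn1a, Cdkn1b and Cdkn2c (right) in each of the 4 cultures, stacked by gene from 0, with each gene's share printed in its segment; the segment of Ccnd1, at most 0.228%, is too thin to label. Ccnd2 took 70.0% and 67.4% of the D cyclins in 2D and 85.6% and 85.0% in 3D, while Cdkn1b took 38.6% of the inhibitors in both 2D cultures and 52.5% and 53.7% in 3D.

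Rb1, the retinoblastoma gene, encodes the protein that holds E2F factors inactive until the G1 kinases phosphorylate it. Its transcript was measured at 6.70 and 5.56 TPM in 2D and at 7.76 and 8.36 TPM in 3D. Both 3D cultures were above both monolayers, by a margin similar to the distance between the monolayers. A log2 fold change of 0.31 (standard error 0.093, 95% confidence interval 0.080 to 0.54, limma adjusted p = 0.0466) passed the threshold narrowly. The direction was the same in all 13 other settings, but 6 of them lost the call: no scaling (adjusted p = 0.0618), no minimum level (0.117), the most abundant transcript of each gene (0.0540), and leaving out 2D replicate 2 (0.129), 3D replicate 1 (0.158) or 3D replicate 2 (0.209), within a range from 0.0365 to 0.209.

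The promoter of Rb1 is shown because it was the only one among the members to hold a match to the E2F binding octamers searched, TTTGGCGC, TTTCGCGC, TTTCCCGC and TTTGGCGG, on either strand. RefSeq promoters of the GRCr8 build, reaching from 250 bases before to 50 bases after a start of transcription, were found for 6 members, namely Ccnd3, Ccne1, Cdk2, Cdk4, Cdkn1b and Rb1, and not for Ccnd1, Ccnd2, Ccne2 and Cdk6. Over all 33469 promoters of this length, 2.18% held at least 1 octamer. The other 5 member promoters held none, which says only that these letters are not in those windows. In the Rb1 promoter (chr15:54911808-54912107, minus strand), the capitals mark TTTCCCGC, which begins 2 bases after the start.
Rb1: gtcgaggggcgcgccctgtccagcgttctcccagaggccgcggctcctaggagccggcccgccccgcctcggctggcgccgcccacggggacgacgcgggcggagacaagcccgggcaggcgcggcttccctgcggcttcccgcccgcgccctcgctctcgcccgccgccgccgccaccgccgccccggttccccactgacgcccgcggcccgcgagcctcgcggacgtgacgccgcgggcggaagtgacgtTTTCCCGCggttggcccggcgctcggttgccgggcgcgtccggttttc

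Rb1 was not the leading member of its family in these cells. Of the summed TPM of Rb1 and the other pocket protein genes Rbl1 and Rbl2, it supplied 26.5% and 26.7% in 2D and 28.7% and 29.3% in 3D. These shares, also computed after the values had been seen, did not overlap. Rbl1, which encodes p107, was measured at 8.51 and 6.09 TPM in 2D and 9.11 and 9.27 TPM in 3D (log2 fold change 0.27, limma adjusted p = 0.144). Rbl2, which encodes p130, was measured at 10.1 and 9.19 TPM in 2D and 10.1 and 10.9 TPM in 3D (log2 fold change 0.078, limma adjusted p = 0.429). Neither passed the test with all 4 cultures, and the value of Rbl2 was 0.039 without 3D replicate 2 and 0.12 without 3D replicate 1. The value of Rbl1 depended on the monolayers, at 0.45 without 2D replicate 1, where it was called (limma adjusted p = 0.0224), and 0.092 without 2D replicate 2, over a range of adjusted p from 0.0224 to 0.415.

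In the list of pocket proteins, E2F factors and their DP partners, 11 of 12 genes were tested, of which 1 rose and 2 fell, a share of calls below the 38.0% of all genes tested, with a median log2 fold change of 0.078 beside -0.0031 over all genes; E2f1 was not analysed here. This median ran from 0.024 without 2D replicate 2 to 0.13 at a minimum of 5 TPM, and without either 3D culture none of the 11 was called. E2f2, an activator of S phase genes, was measured at 4.33 and 4.41 TPM in 2D and at 2.35 and 2.51 TPM in 3D. The cultures of a group nearly coincided and the groups were far apart, with a log2 fold change of -0.68 (standard error 0.098, limma adjusted p = 0.00754). E2f8, an E2F without a DP partner that represses transcription, fell from 14.0 and 11.1 TPM to 9.16 and 10.3 TPM (log2 fold change -0.37, limma adjusted p = 0.0430), a call that held in 6 of 13 further settings and not without 2D replicate 1 (limma adjusted p = 0.106) or without either 3D culture (range of adjusted p 0.0315 to 0.221).

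E2f5, a factor that acts together with pocket proteins as a repressor, was the one that rose, from 9.04 and 9.06 TPM in 2D to 11.7 and 12.2 TPM in 3D (log2 fold change 0.33, standard error 0.071, limma adjusted p = 0.0197), a call lost with no minimum level and without either 3D culture (range 0.0140 to 0.127). The most abundant E2F was E2f4, also a partner of pocket proteins, at 36.1 and 34.4 TPM in 2D and 38.7 and 39.7 TPM in 3D (log2 fold change 0.11, limma adjusted p = 0.169). E2f3, E2f6 and E2f7 had log2 fold changes of 0.061, -0.0099 and 0.17 and were not called. These values were unstable, as E2f3 had 0.012 without 2D replicate 2, 0.013 without 3D replicate 1 and 0.44 with the most abundant transcript, E2f6 ran from -0.12 without 3D replicate 1 to 0.11 without 3D replicate 2, and E2f7 from 0.024 without 2D replicate 2 to 0.30 without 2D replicate 1. Tfdp1, the DP subunit shared by most E2F factors, was at 116 and 111 TPM in 2D and at 127 in each 3D culture (log2 fold change 0.11, limma adjusted p = 0.127).

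The genes that E2F factors switch on for entry into S phase were lower almost without exception. All 20 listed were tested, all 20 had a negative log2 fold change, and 19 fell, where 19.5% of all genes tested were called lower, with a median of -0.41 beside -0.0031 over all genes; the one not called was Gins2 (log2 fold change -0.24, limma adjusted p = 0.0593). All 20 stayed negative when either 3D culture was left out, but without 3D replicate 1 limma called 0 of them, 16 having an unadjusted p below 0.05, and without 3D replicate 2 it called 7. With all cultures kept, 15 of the 20 were called lower with no scaling, and 17 with no minimum level or without the intensity trend. Gins1, a subunit of the replicative helicase, was measured at 27.6 and 28.5 TPM in 2D and at 15.6 and 17.0 TPM in 3D. Both 3D cultures were well below the monolayers (log2 fold change -0.79, standard error 0.074, limma adjusted p = 0.00409).

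Uhrf1, which maintains DNA methylation at replication forks, fell from 42.6 and 36.7 TPM to 21.5 and 25.1 TPM (log2 fold change -0.79, limma adjusted p = 0.00510). Cdc6, which loads the helicase at origins, fell from 12.0 and 11.0 TPM to 6.79 and 7.14 TPM (log2 fold change -0.69, limma adjusted p = 0.00458). Mcm3, a subunit of the helicase ring, fell from 57.2 and 54.8 TPM to 36.6 and 38.4 TPM (log2 fold change -0.61, limma adjusted p = 0.00408). In each of these 3 genes the groups did not overlap, as was so after scaling in 75.5% of all genes tested. The most abundant genes of the list were Pcna, the sliding clamp of DNA polymerase, and Rrm1, a subunit of ribonucleotide reductase. Pcna fell from 405 and 401 TPM to 311 and 313 TPM (log2 fold change -0.41, limma adjusted p = 0.00651) and Rrm1 from 135 and 125 TPM to 92.8 TPM in each 3D culture (log2 fold change -0.52, limma adjusted p = 0.00428).

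Promoters of these genes are shown because the list moved together. Of the 20 genes, 15 had a promoter in the RefSeq table, and 11 of these held at least 1 of the E2F octamers in at least 1 promoter, beside 2.44% of all genes in the table. The list was drawn up as E2F targets, so a high share could follow from that choice alone. The 11 with an octamer were all among those that fell, with a median log2 fold change of -0.41. Of the 4 without one, 3 fell, with a median over the 4 of -0.47. In the other lists 7 genes held an octamer, of which Cdk1 and Ezh2 fell and Rbl1, E2f3, Lin52, Cdc25a and Cul1 were not called. However, Rbl1 was called without 2D replicate 1 and Lin52 without 2D replicate 2. By list, the share among genes with a promoter ran from 0% in the CDK inhibitors to 28.6% in the pocket protein and E2F list. These shares stand beside the same 2.44% of all genes. Among the 6 genes named above, Gins1, Uhrf1 and Mcm3 had a match, Pcna and Rrm1 had none, and Cdc6 was not in the table. The stretches below begin 30 bases before the first octamer and, unless the promoter ends sooner, run to 30 bases after the last, with the octamers in capitals. In Gins1 (chr3:160184865-160184936, plus strand), TTTGGCGC occurs on both strands in overlapping matches. In Uhrf1, at the start that held a match (chr9:1222963-1223124, plus strand), TTTCCCGC occurs on the opposite strand and TTTCGCGC on the strand of the gene. In Mcm3 (chr9:30733697-30733782, minus strand), the same octamers occur, again with TTTCCCGC on the opposite strand.
Gins1: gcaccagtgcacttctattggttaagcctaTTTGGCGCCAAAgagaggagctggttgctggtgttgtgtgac
Uhrf1: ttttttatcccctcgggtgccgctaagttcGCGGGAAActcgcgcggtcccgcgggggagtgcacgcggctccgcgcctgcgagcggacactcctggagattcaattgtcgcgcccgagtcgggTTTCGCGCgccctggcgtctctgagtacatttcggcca
Mcm3: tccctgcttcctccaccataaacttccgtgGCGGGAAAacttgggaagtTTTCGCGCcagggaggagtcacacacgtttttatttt

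**Figure D4:**
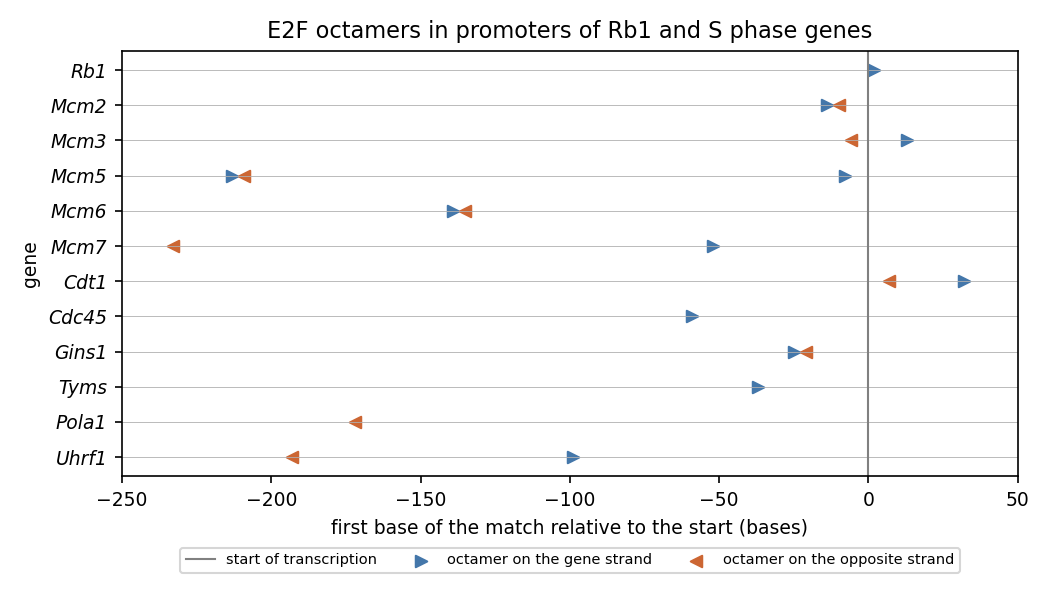
Position of each E2F octamer in the promoters of Rb1 and of the 11 S phase genes that held one, in bases from the start of transcription, with blue arrowheads for matches on the strand of the gene and orange for the opposite strand. Of the 20 matches in the S phase genes, 17 began before the start, 9 of them within 60 bases of it.

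Cyclins and the kinase that act after S phase entry were lower as well. Of the 6 genes listed, 5 were tested and 4 fell, beside 19.5% of all genes tested, with a median log2 fold change of -0.39, while without 3D replicate 1 none was called and without 3D replicate 2 there were 2; Ccna1, at low TPM, was not called, and Ccnb2 was not analysed here. Cdk1, the mitotic kinase, fell from 152 and 151 TPM in 2D to 104 and 109 TPM in 3D (log2 fold change -0.55, limma adjusted p = 0.00426). Ccnf, which targets proteins for destruction in G2, fell from 16.9 and 17.6 TPM to 11.2 and 11.8 TPM (log2 fold change -0.59, limma adjusted p = 0.00611). The mitotic cyclin Ccnb1 and the S and G2 phase cyclin Ccna2 had log2 fold changes of -0.39 and -0.38, and both were called. None of these 4 genes overlapped between the groups, and after scaling neither did 75.5% of all genes tested.

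In the MuvB complex, which joins pocket proteins to silence cell cycle genes in resting cells, and its proliferative partner Mybl2, 2 of 6 genes fell and none rose, with a median log2 fold change of -0.23, and this share of calls was no higher than the 38.0% over all genes tested. The median was -0.11 without 2D replicate 1, where 1 gene fell, and -0.41 without 2D replicate 2, where 3 fell, among them Lin52, whose value turned from 0.15 to -0.62 between these settings. Without either 3D culture none was called. Mybl2, which encodes B-Myb, fell from 18.1 and 17.6 TPM to 12.5 and 13.0 TPM (log2 fold change -0.50, limma adjusted p = 0.00611). Lin37 fell from 26.1 and 22.9 TPM to 16.8 and 19.9 TPM (log2 fold change -0.44, limma adjusted p = 0.0176), a call lost also without 2D replicate 1 (0.0565, range 0.00983 to 0.115). Rbbp4, a histone-binding subunit shared with other complexes, was the most abundant at 130 and 129 TPM in 2D and 134 and 130 TPM in 3D and overlapped between the groups. Among the 4 genes that activate CDKs by phosphorylation or dephosphorylation, only Mnat1 was called (log2 fold change -0.36, limma adjusted p = 0.0142). The value of this assembly factor of the CDK-activating kinase was -0.38 without 3D replicate 1 and -0.34 without 3D replicate 2. Its call was lost in both of these settings. With a pseudocount of 0.1, Ccnh was called lower as well. The kinase Cdk7 had a log2 fold change of 0.055, or -0.013 without 3D replicate 1. The median was -0.10, or -0.062 with no scaling, and 1 call in 4 genes is also below the share of 38.0% over all genes.

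Of 10 tested components of the ubiquitin ligases that degrade G1 proteins, 1 rose and 4 fell, with a median log2 fold change of -0.11, where 18.5% of all genes tested were called higher and 19.5% lower. The median was -0.071 with no scaling, -0.055 without 3D replicate 1, where none was called, and -0.16 without 3D replicate 2, where 1 was. Cks1b, the cofactor with which Skp2 recognises the Cdkn1b protein, fell from 44.9 and 45.0 TPM in 2D to 28.9 and 28.0 TPM in 3D (log2 fold change -0.68, standard error 0.062, limma adjusted p = 0.00409). Skp1 and Rbx1, shared subunits of many ligases and the most abundant of the list, had log2 fold changes of -0.35 and -0.40 and were called lower. The value of Rbx1 was -0.54 without 2D replicate 1 and -0.26 without 2D replicate 2, and its call was lost with no minimum level and without either 3D culture. Fbxw7, the receptor that marks the Ccne1 protein for destruction, was measured at 24.1 and 16.0 TPM in 2D and at 32.2 and 33.0 TPM in 3D. The 3D cultures were nearly level and both above the monolayers, which differed widely, with a log2 fold change of 0.66 (standard error 0.16, limma adjusted p = 0.0257) that was 0.90 without 2D replicate 1 and 0.41 without 2D replicate 2. It was called by limma in 9 of 13 further settings and not with no minimum level, with the most abundant transcript or without either 3D culture (range of adjusted p 0.00509 to 0.132).

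**Figure D5:**
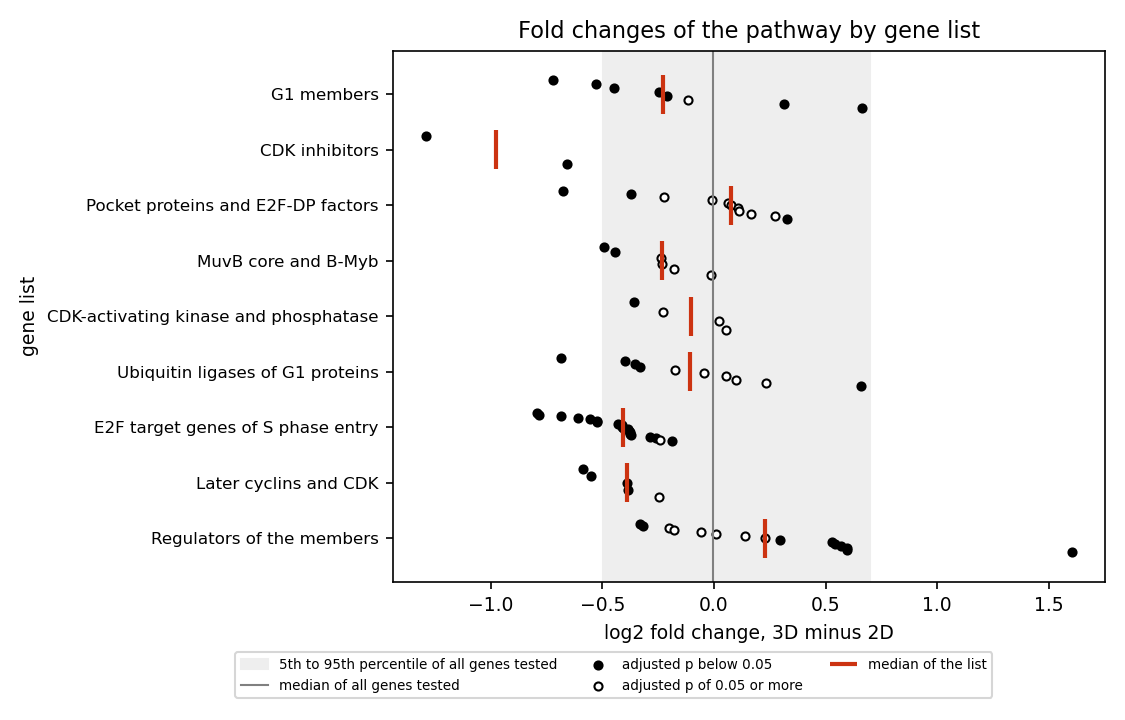
Log2 fold changes, 3D minus 2D, of the tested members and of every tested gene in the 8 lists, with 1 point per gene, filled where the adjusted p was below 0.05, and a red bar at the median of each list. The S phase genes lay at or below -0.19 throughout, with a median of -0.41, while the regulators had a median of 0.23 and reached 1.61 with Prlr; the shaded band spans -0.50 to 0.70, the 5th to 95th percentile of all genes tested.

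Of 16 upstream regulators known to act on these genes in beta cells, 15 were tested. Of these, 7 rose and 2 fell, beside 18.5% higher and 19.5% lower over all genes tested. With no minimum level, 4 rose and 2 fell. Over the 15, the median log2 fold change was 0.23. This median was 0.12 without 2D replicate 2, 0.34 without 2D replicate 1 and 0.15 with no minimum level, and 2 rises and no falls were called without 3D replicate 2 and none of either without 3D replicate 1; Kmt2a was at most 0.0303 TPM and was not tested. Prlr, the prolactin receptor, whose signal raises D cyclins during pregnancy, was measured at 23.9 and 12.2 TPM in 2D and at 56.9 and 54.8 TPM in 3D. The 3D cultures lay close together and far above both monolayers, of which replicate 2 was much the lower. The log2 fold change was 1.61 (standard error 0.26, 95% confidence interval 0.96 to 2.26, limma adjusted p = 0.00984). It varied from 1.18 without 2D replicate 2 to 2.03 without 2D replicate 1, and the call was lost without either 3D culture (over 13 settings, adjusted p from 0.000731 to 0.0818).

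Myc, a transcription factor that drives growth and G1 entry, rose from 46.8 and 44.3 TPM in 2D to 75.3 and 65.4 TPM in 3D (log2 fold change 0.57, standard error 0.085, limma adjusted p = 0.00810). Foxo1, a factor restrained by insulin signalling that can induce Cdkn1b, rose from 10.8 and 9.32 TPM to 15.3 and 17.1 TPM (log2 fold change 0.60, limma adjusted p = 0.00748). Igf1r, the receptor of insulin-like growth factor, rose from 11.8 and 8.86 TPM to 14.9 and 18.3 TPM (log2 fold change 0.60, limma adjusted p = 0.0236), a call lost with no minimum level, without 2D replicate 2 (0.0742) and without either 3D culture (range 0.0116 to 0.126). The groups did not overlap in these 3 genes, nor did they after scaling in 75.5% of all genes tested. Akt1, a kinase downstream of these receptors and the most abundant of the list, was at 91.7 and 80.5 TPM in 2D and at 76.5 and 79.7 TPM in 3D, and was not called (log2 fold change -0.18, limma adjusted p = 0.0691) except without 2D replicate 2 (limma adjusted p = 0.0430, range 0.0430 to 0.293).

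Over the 80 genes of the 8 lists, 73 were tested, of which 9 rose and 36 fell, where 18.5% of all genes tested were called higher and 19.5% lower, with a median log2 fold change of -0.24 beside -0.0031 over all genes. Of these 45, 38 were still called with no scaling, 44 with median of ratios scaling and 45 with insulin and mitochondrial genes removed. None changed direction, but another scaling moves all genes nearly alike, so this says little about direction. Without 3D replicate 1 a single one of the 73, Cdkn1a, was called in limma, with 41 at an unadjusted p below 0.05, and without 3D replicate 2 there were 14.

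Single transcripts gave a similar account, since each member other than Ccnd1 was represented by 1 transcript. The 8 transcripts of members with a mean of at least 1 TPM were tested among 15020 transcripts, of which 23.5% were called. Of the 8, 6 were called, and the transcripts of Cdkn1b (limma adjusted p = 0.179) and Rb1 (limma adjusted p = 0.0932) were not. The transcript of Rb1 had a log2 fold change of 0.30, so that the value was close to that of the gene while the call was lost. With no minimum level the transcript of Ccnd2 was not called and 1 of Ccnd1 was. With 1 transcript per gene, a shift between isoforms could not be examined in the other members.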

How the data were processed

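Per the labels and the methods, the authors prepared stranded libraries, sequenced 75 base single-end reads, checked them with FastQC 0.11.8, quantified transcripts with Salmon 1.2 against an rn4 reference, and deposited TPM. These were written with decimal commas, and each sample was checked to hold no negative value and to sum to 1000000. The count-based test of the methods could not be repeated on TPM. TPM were summed per gene symbol, scaled by trimmed means of M values without weighting (30% of M and 5% of A trimmed, factors 0.960 to 1.02), and tested as log2(TPM + 1) with limma 3.58.1 (empirical Bayes, intensity trend) in R 4.3.3, with Benjamini-Hochberg adjustment over all genes tested. The steps were tested on simulated data. The members and lists were chosen with earlier results of these data known. All members were named, and of each list up to 4 called genes with the largest change and a mean of at least 5 TPM, the 2 most abundant, and any CDK inhibitor, pocket protein or E2F factor. Labels call the cultures biological replicates. Promoter sequences are from RefSeq (GRCr8). Not every marker examined is reported here.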

Additional observations from a re-analysis of the deposited data

How the results depend on the processing

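The 8 tested members kept their direction in each of 13 other settings: no scaling, median of ratios scaling, insulin and mitochondrial genes removed, no minimum level, a minimum of 5 TPM, a pseudocount of 0.1, no intensity trend, the replicate block, the most abundant transcript, and each culture left out. At an adjusted p below 0.01, 1418 of the 4541 genes, 4 of the 7 members and 23 of the 45 list genes were called. With single cultures left out, between 136 and 4515 genes, 0 and 6 members and 1 and 42 list genes were called, the lowest without 3D replicate 1. There the lone 3D culture was assumed to vary like the monolayers. The rise of the Ccnd2 share, 16.6 percentage points, ran from 15.4 to 17.9.

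Replicate numbers did not pair the samples, as deviations of same-numbered cultures had a correlation of -0.0060 across genes, which are not independent replicates. With the replicate block 4814 genes, 6 members, 44 list genes and 4 of 8 member transcripts were called. Of the members Cdk4 alone was lost, and of their transcripts those of Ccne2 and Cdk4. TPM carry no depth, so precision at low levels, as for Ccnd1 and Cdk6, could not be computed from them.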
